A study of Mus musculus with 37 samples.

Results

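Matrix metalloproteinases (MMPs) are zinc-dependent enzymes that cut collagens, elastin, gelatin and many secreted or membrane proteins, and the tissue inhibitors of metalloproteinases (TIMPs) bind and block them. The transcripts described here are those of 7 MMP genes (Mmp2, Mmp8, Mmp9, Mmp12, Mmp13, Mmp14 and Mmp19) and 3 TIMP genes (Timp1, Timp2 and Timp3), chosen by symbol from the 24016 genes of an expression table of bone marrow-derived macrophages (BMDMs). All 10 were in the table. PolyA RNA was sequenced from BMDMs of WT and Arntl-/- mice, labelled BmalKO, at 0, 6, 24 and 48 h after addition of Kdo2-lipid A (KLA), a defined part of bacterial lipopolysaccharide that acts on TLR4. Arntl encodes Bmal1, a transcription factor of the circadian clock. The mice were males of 6 to 9 weeks, with C57BL/6J given as the strain of every library in the labels and C57BL/6 as the background of the Arntl-/- mice in the study's methods, and the cells of both genotypes had 6 days in M-CSF at 20 ug/ml. The Arntl deletion was carried by the whole animal. The labels and the study's methods give the WT mice as bought C57BL/6J animals, and the study's results give them as littermates. Each of the 8 conditions had 1 library, so no difference below has a replicate check, no test was made, and the labels do not say how many mice a library came from.

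Most MMPs are secreted as inactive proenzymes, and a few, such as the Mmp14 product, sit in the cell membrane. The Mmp14 protein activates the Mmp2 proenzyme on the cell surface in a complex that contains the Timp2 protein, so a TIMP can take part in activation as well as inhibition. Macrophages are known for the elastase of Mmp12 and the gelatinase of Mmp9, neutrophils for the collagenase of Mmp8 and stored Mmp9, and osteoclasts and fibroblasts for several of the others. Transcripts measure neither the proenzymes nor their activity.

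Values are FPKM, fragments per kb of exon per 10000000 reads as deposited, divided by a size factor for each library (0.909 to 1.11). They are per length, so levels can be set side by side between genes, but only roughly. At most 3 reads at a position were counted, a limit that abundant genes reach sooner than scarce ones. Behind them lay 8587560 to 27036783 reads on genes. A gene was counted as called where 2 libraries differed at least 1.5-fold, on log2(scaled FPKM + 0.1), among the 9909 genes with a mean of at least 50 scaled reads per 10000000. Of the 10 genes, 9 passed that filter and Timp1 did not, with a mean of 32.5. Intervals given after a ratio are exact binomial intervals at the 95% level. They were computed on the reads divided by 6, because both mates of a pair and up to 3 reads at a position could be counted, and they cover counting error only. The libraries also differed in how a value depended on expression level. The 10% of genes with the highest expression lay at a median log2 of -0.36 from the 8-library mean in WT at 6 h, the deepest library, and at 0.30 in WT at 48 h. Since Mmp9, Mmp14, Mmp8 and Mmp12 lay above the 95th percentile of the genes that passed the filter, values corrected for this relation are given beside theirs.

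The deleted gene was checked first. Arntl was at 34.7, 32.6, 35.9 and 39.1 scaled FPKM in WT at 0, 6, 24 and 48 h and at 14.0, 11.4, 19.0 and 20.4 in Arntl-/- macrophages. All 4 Arntl-/- values were below all 4 WT values. All 9 macrophage markers in the table passed the filter, and their summed level was 15892 to 38427 in WT and 18030 to 34242 in Arntl-/- libraries. Of 15 stromal markers, genes of fibroblasts and their matrix such as collagens, Sparc and Postn, 12 passed. Their sum was 761, 868, 964 and 1841 in WT and 553, 587, 615 and 1056 in Arntl-/- macrophages. The sum was lower in the Arntl-/- library at each time, but not every marker was. Dcn was higher there at 0, 24 and 48 h, and Lum at 0, 6 and 48 h. Of the neutrophil granule markers, Mpo was at 0 in all 8 libraries and Elane was at 0 in 7 of them. S100a9 was higher in Arntl-/- libraries at 0, 6 and 24 h (407, 432 and 375 against 165, 210 and 150). At 48 h S100a9 was low in both genotypes (9.09 and 10.2). S100a8 was higher in the Arntl-/- library at 0 and 6 h only (405 and 519 against 311 and 285). S100a8 was at 415 against 433 at 24 h, and highest in both genotypes at 48 h (914 against 920). Ngp, Ltf and Camp, granule genes that missed the filter, were also higher in the Arntl-/- library at 0 h, Ngp at 84.3 against 37.5, Ltf at 42.9 against 19.1 and Camp at 12.5 against 0. In bulk samples, fewer cells of a type and less RNA per cell cannot be told apart.

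The 10 genes lie on 7 chromosomes of the mm9 build. Mmp13 (chr9:7272514-7283333), Mmp12 (chr9:7347374-7360461) and Mmp8 (chr9:7558429-7568486), all on the plus strand, belong to a cluster of 10 MMP genes that spans 427 kb. Mmp9 lies at chr2:164773719-164781349, Mmp14 at chr14:55050441-55060095, Mmp2 at chr8:95351227-95377319 and Mmp19 at chr10:128227966-128237880, all on the plus strand. Timp1 lies at chrX:20447292-20451863 and Timp3 at chr10:85763157-85812250 on the plus strand, and Timp2 at chr11:118162375-118216725 on the minus strand. Timp1 and Timp3 sit inside the synapsin genes Syn1 and Syn3, which run on the other strand. Because reads were counted on both strands, reads of opposite genes cannot be told apart where exons overlap. Of 8144 exon bases annotated for Timp3, 1733 are shared with Syn3, whose own level was 0.276 to 2.34, and of 3410 for Mmp19, 789 are shared with 1110012D08Rik.

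The 250 bases upstream of each gene's start were searched for short motifs on both strands. The AP-1 site TGANTCA, bound by Fos and Jun proteins that TLR4 signaling activates, was found in 4 of the 10 genes (Mmp9, Mmp12, Mmp13 and Mmp19), against 6.15% of 23951 promoters of the table's genes. The 100 bases before these 4 starts are shown because the site stands at a similar distance in each, 26 to 69 bases upstream. All are on the plus strand of mm9, 5′ to 3′, with the AP-1 site in capitals.
Mmp9, chr2:164773619-164773718: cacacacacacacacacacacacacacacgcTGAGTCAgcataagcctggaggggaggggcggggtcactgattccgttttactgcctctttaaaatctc
Mmp12, chr9:7347274-7347373: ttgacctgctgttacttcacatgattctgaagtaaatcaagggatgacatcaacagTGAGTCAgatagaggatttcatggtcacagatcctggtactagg
Mmp13, chr9:7272414-7272513: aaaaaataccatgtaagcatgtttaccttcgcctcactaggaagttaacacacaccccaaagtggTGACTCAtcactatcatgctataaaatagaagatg
Mmp19, chr10:128227866-128227965: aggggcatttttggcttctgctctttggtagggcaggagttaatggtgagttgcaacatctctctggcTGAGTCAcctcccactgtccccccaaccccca
The 4 genes did not share a time course, as their values below show. The E-box CACGTG, which Bmal1 and Clock bind, was in none of the 10 windows, against 6.58% of all promoters. AGGTCA, the core site of the RevErb and ROR receptors, was in that of Mmp12, against 12.4%. A match is a description of letters, not a binding site. A TATA box, TATAAA, was in the window of Mmp13, against 12.0% of promoters, and the core of the PU.1 site, GAGGAAGT, in that of Mmp8, against 2.30%.

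MMP transcripts were abundant in both genotypes, and a few genes made up most of them. Mmp9 had the highest mean over the 8 libraries (2131 scaled FPKM), followed by Mmp14 (1540), Mmp8 (1253), Mmp12 (912), Timp2 (508), Mmp13 (393), Mmp2 (147), Mmp19 (139), Timp1 (37.0) and Timp3 (11.5). The first 4 made up 85.2 to 91.7% of the summed level of the 7 MMPs in each library, and Mmp9 alone 29.9 to 36.6%. That sum leaves out the other MMP genes, of which Mmp27 had a mean of 338. Ranges over the libraries overlapped between neighbours in this order, except that every value of Mmp13 was above those of Mmp2, those of Mmp19 above Timp1, and those of Timp1 above Timp3. Timp2 made up 87.8 to 93.7% of the summed TIMP level.

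**Figure D1:**
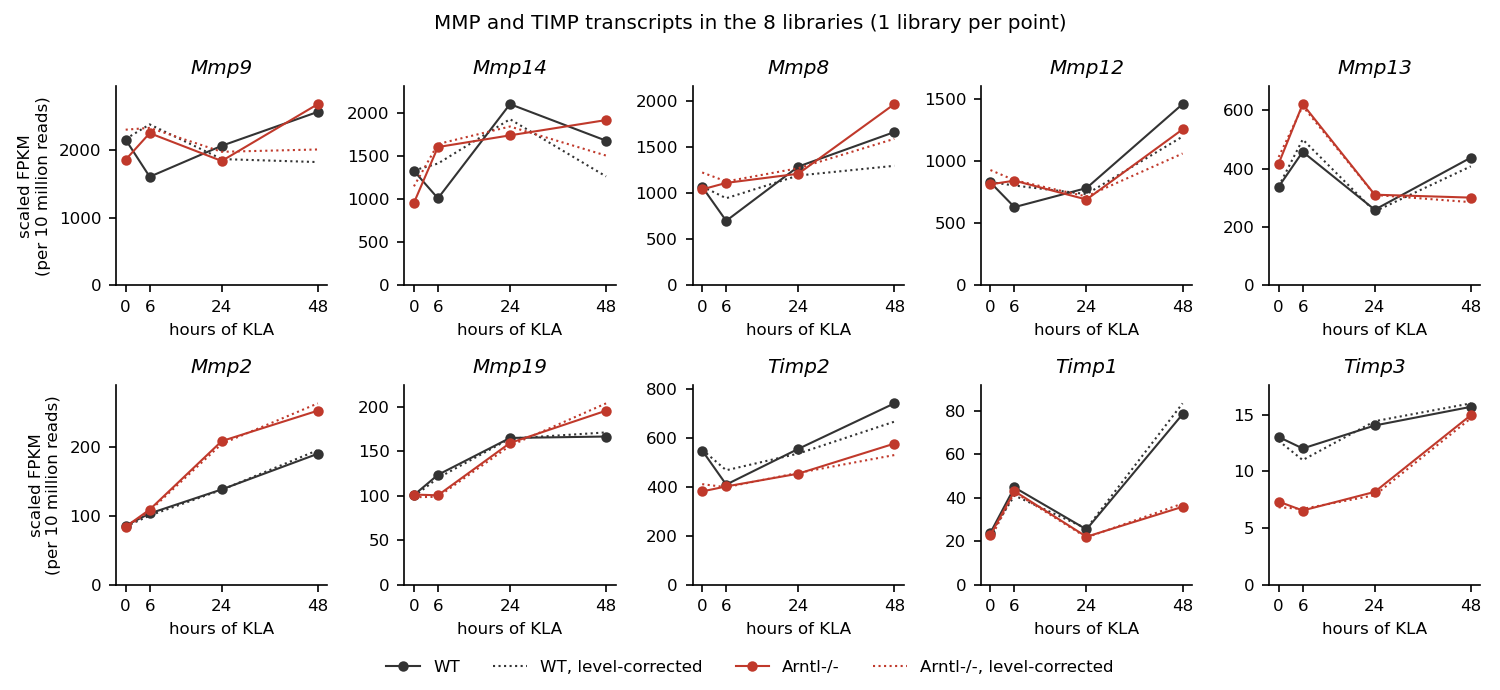
Scaled FPKM (per 10000000 reads, y axis from 0) of the 10 genes against hours of KLA, 1 library per point, WT in black and Arntl-/- in red, with dotted lines for values corrected for expression level. Mmp2 climbs in both genotypes to 190 and 253 at 48 h, and the 3 TIMP panels show the Arntl-/- line below the WT line at each time, except that the corrected Timp1 line is above at 6 h.

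Of the gelatinases, which cut denatured collagen, Mmp2 rose with KLA in both genotypes and Mmp9 passed 1.5-fold in no comparison. Mmp9 was at 2158, 1608, 2067 and 2570 in WT and at 1861, 2254, 1842 and 2684 in Arntl-/- macrophages at 0, 6, 24 and 48 h. The lowest of these was the WT library at 6 h, and the genotypes overlapped. The ratio of Arntl-/- to WT was 0.863, 1.40, 0.891 and 1.04, and 1.06, 0.978, 1.06 and 1.10 after correction for expression level, so its direction at 0, 6 and 24 h turned with the correction. With upper-quartile scaling, Mmp9 in Arntl-/- macrophages at 48 h was 1.54-fold its 0 h level. Mmp9 and Cx3cr1 are both known as genes that RevErb repressors hold down, and Nr1d1 and Nr1d2, which encode these repressors, were called lower in Arntl-/- macrophages at all 4 times. Nr1d2 was at 71.3, 60.8, 96.4 and 91.1 in WT and at 6.22, 3.26, 2.79 and 3.74 in Arntl-/- macrophages. Cx3cr1 was at 52.0, 61.4, 113 and 66.2 in WT and at 103, 173, 236 and 268 in Arntl-/- macrophages, called higher at all 4 times, while Mmp9 was called at none. By qPCR, the study found RNA made from an enhancer of Mmp9 and from one of Cx3cr1 significantly higher in Arntl-/- macrophages. Enhancer RNA is a different measure from the gene transcripts given here.

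Mmp2 was at 85.8, 104, 139 and 190 in WT and at 84.2, 109, 209 and 253 in Arntl-/- macrophages. Its level went up at each successive time in both series, and the genotypes lay close at 0 and 6 h (ratios of 0.982 and 1.05). Against 0 h it was 2.22-fold higher in WT at 48 h (interval 1.68 to 2.94) and 3.00-fold higher in Arntl-/- macrophages (2.37 to 3.81), the widest range of the 9 genes that passed the filter. At 24 h it was 1.51-fold higher in Arntl-/- than in WT macrophages (1.21 to 1.89), and 1.48-fold after correction. At 48 h it was 1.33-fold higher (1.05 to 1.69). The genes whose 8 values followed those of Mmp2 most closely were Clasp1, Sgk1 and Adck3, with Pearson's r of 0.988, 0.987 and 0.987 over the 8 libraries. Such an r also carries what libraries share, depth included.

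Of the collagenases, Mmp8 was at 1066, 698, 1285 and 1659 in WT and at 1038, 1109, 1207 and 1961 in Arntl-/- macrophages. The WT library at 6 h was again the lowest, and the 2 libraries at 48 h were the highest. At 6 h Mmp8 was 1.59-fold higher in Arntl-/- than in WT macrophages (1.47 to 1.72), but 1.19-fold after correction. The neutrophil markers S100a8 and S100a9 were also called higher there (519 against 285 and 432 against 210), with Mpo and Elane at 0 in both libraries. Of the granule genes below the filter, Ngp was at 55.8 against 33.7 there, Ltf at 18.5 against 7.74 and Camp at 18.1 against 14.6. Other neutrophil markers were lower in the Arntl-/- library at 6 h, with Csf3r, the receptor for G-CSF, at 262 against 288, Cxcr2 at 0.784 against 1.29 and Retnlg at 0 against 2.06. The part of neutrophils in the Mmp8 value was not tested. At 48 h against 0 h it was 1.56-fold higher in WT and 1.89-fold higher in Arntl-/- macrophages, and 1.21-fold and 1.30-fold after correction. Its closest genes were Ctsa, Tmem189 and Glipr1 (r of 0.991, 0.988 and 0.987).

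Mmp13, the other collagenase measured, was at 338, 457, 259 and 438 in WT and at 417, 621, 311 and 301 in Arntl-/- macrophages. It was the gene of the 10 that was highest at 6 h and lower at 24 h in both series. After correction Mmp9 had that order as well. At 6 h it was 1.35-fold the 0 h level in WT (1.19 to 1.54) and 1.49-fold in Arntl-/- macrophages (1.33 to 1.67), both short of 1.5-fold. With the values as deposited, without size factors, it was 1.51-fold in WT. Arntl-/- macrophages were above WT at 0, 6 and 24 h (1.23-fold, 1.36-fold and 1.20-fold) and below WT at 48 h (0.687-fold, 0.563 to 0.837). The closest genes, Bola3, Dach1 and Mettl6, had an r of 0.950, 0.933 and 0.928.

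Mmp12, the macrophage elastase, was at 828, 629, 782 and 1458 in WT and at 813, 842, 690 and 1255 in Arntl-/- macrophages. Both libraries at 48 h were above the other 6. Against 0 h the 48 h values were 1.76-fold (WT) and 1.54-fold (Arntl-/-) higher, and 1.44-fold and 1.14-fold after correction. Between the genotypes the ratio was 0.982, 1.34, 0.882 and 0.861 and did not pass 1.5-fold at any time. After correction it was 1.12, 1.05, 0.974 and 0.886, so that the direction at 0 h turned.

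Mmp14, the membrane-bound activator of proMMP-2, was at 1326, 1008, 2099 and 1676 in WT and at 956, 1602, 1738 and 1915 in Arntl-/- macrophages. WT reached its highest value at 24 h after a low value at 6 h, 1.58-fold its 0 h level and 1.45-fold after correction, and Arntl-/- macrophages were higher at 6, 24 and 48 h than at 0 h. The change from 0 to 6 h was 0.760-fold in WT and 1.68-fold in Arntl-/- macrophages, and 1.06-fold and 1.43-fold after correction. The ratio of Arntl-/- to WT was 0.721 at 0 h (0.666 to 0.781) and 1.59 at 6 h (1.49 to 1.69), then 0.828 and 1.14 at the later times. After correction it was 0.861, 1.16, 0.956 and 1.19, with the same directions and none past 1.5-fold.

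Mmp19, an MMP that cuts basement membrane components, was at 101, 124, 165 and 167 in WT and at 101, 101, 160 and 196 in Arntl-/- macrophages. The 4 values at 24 and 48 h were above the 4 values at 0 and 6 h. It was 1.64-fold and 1.65-fold higher in WT at 24 and 48 h than at 0 h, and 1.57-fold and 1.93-fold higher in Arntl-/- macrophages. These 4 changes also passed 1.5-fold after correction. The ratio between the genotypes lay between 0.814 and 1.17. As given above, part of its exons is shared with an opposite gene.

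Timp2 and Timp3 transcripts were lower in Arntl-/- macrophages at all 4 times, and Timp1 at 48 h. Timp3, whose protein is held in the extracellular matrix, was at 13.0, 12.0, 14.1 and 15.7 in WT and at 7.34, 6.55, 8.20 and 15.0 in Arntl-/- macrophages. The Arntl-/- values at 0, 6 and 24 h were below all 4 WT values, and that at 48 h was within the WT range. The ratio was 0.566 (0.282 to 1.11), 0.548 (0.268 to 1.03), 0.586 (0.278 to 1.21) and 0.953 (0.438 to 2.06). The counting interval held 1 at each time, since 77 to 272 reads lay behind each value. Timp3 had the lowest level of the 10 genes and passed the filter narrowly, with a mean of 53.7 scaled reads. The direction at the 4 times and the size past 1.5-fold at 0, 6 and 24 h held with the values as deposited, upper-quartile scaling, the correction for expression level and both other pseudocounts.

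Timp2, the abundant inhibitor, was at 548, 409, 555 and 741 in WT and at 381, 401, 453 and 576 in Arntl-/- macrophages. It was lower in Arntl-/- macrophages at each time and the ranges overlapped. At 0, 6, 24 and 48 h the ratio was 0.695 (0.625 to 0.773), 0.982 (0.889 to 1.08), 0.817 (0.730 to 0.916) and 0.778 (0.686 to 0.881), and after correction 0.745, 0.852, 0.853 and 0.795. None passed 1.5-fold. Within Arntl-/- macrophages Timp2 was 1.51-fold higher at 48 h than at 0 h, and 1.29-fold after correction.

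Timp1, the secreted inhibitor known to follow inflammatory signals, was at 23.8, 44.7, 25.4 and 78.4 in WT and at 22.8, 43.0, 22.0 and 35.8 in Arntl-/- macrophages. The genotypes were close at 0, 6 and 24 h and apart at 48 h, where the WT library held the highest of the 8 values. The ratio at 48 h was 0.457 (0.154 to 1.20), from at most 190 reads in a library. Its direction turned at 0 h with the values as deposited, to a ratio of 1.01, and at 6 h with the correction for expression level, to 1.04. In both genotypes the value at 6 h was above those at 0 and 24 h. Timp1 did not pass the filter and is counted in none of the calls.

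The stromal markers were set beside the TIMPs, as were the macrophage markers. Over the 8 libraries the summed stromal markers had a Pearson's r of 0.888 with Timp2, 0.852 with Timp3 and 0.720 with Timp1, and of -0.167 (Mmp13) to 0.729 (Mmp12) with the 7 MMPs, as a description of 8 points that share depth and time. The summed macrophage markers had an r of 0.864 with Timp2, 0.563 with Timp3 and 0.371 with Timp1. Of the 12 stromal markers past the filter, 5, 4, 5 and 9 were called lower in Arntl-/- macrophages at 0, 6, 24 and 48 h, and 1 (Dcn) was called higher, at 0 h. The 4 with the largest mean log2 ratio were Col3a1 (-1.16), Postn (-1.07), Sparc (-0.99) and Acta2 (-0.76). Dcn was also higher in the Arntl-/- library at 24 and 48 h (37.4 and 92.2 against 29.6 and 63.0), and lower at 6 h. Lum, which missed the filter, was higher at 0, 6 and 48 h (4.22, 6.91 and 9.12 against 2.76, 1.80 and 7.68). At 24 h Lum was lower (3.51 against 4.37). Set over the stromal sum, Timp3 was 0.00853 to 0.0171 in WT and 0.0112 to 0.0142 in Arntl-/- macrophages, and Timp2 was 0.402 to 0.720 and 0.546 to 0.737, so that the genotypes overlapped. At matched times, Timp3 over that sum was lower in the Arntl-/- library at 0, 6 and 24 h (0.0133, 0.0112 and 0.0133 against 0.0171, 0.0139 and 0.0146). At 48 h it was higher (0.0142 against 0.00853). Timp2 over that sum was lower in the Arntl-/- library at 0 h (0.689 against 0.720). It was higher at 6, 24 and 48 h (0.684, 0.737 and 0.546 against 0.471, 0.575 and 0.402). The part of stromal cells in the TIMP values was not tested. Averaged over the 4 times, the log2 ratio was -0.63 for Timp3, -0.36 for Timp1 and -0.30 for Timp2, against 0.26 for Mmp2, 0.20 for Mmp8, 0.12 for Mmp13, 0.04 for Mmp9, 0.03 for Mmp14, -0.00067 for Mmp12 and -0.03 for Mmp19.

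**Figure D2:**
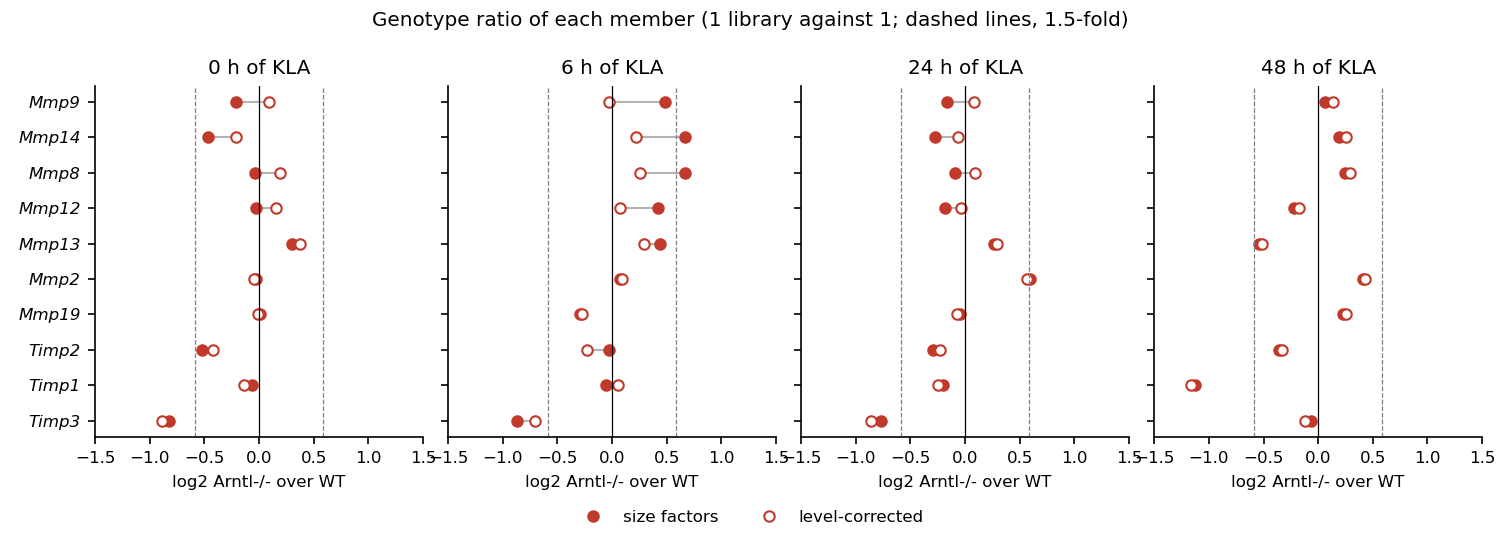
Log2 ratio of Arntl-/- to WT (x axis) of each gene at 0, 6, 24 and 48 h, 1 library against 1, with filled circles for size factors, open circles after correction for expression level, and dashed lines at 1.5-fold. The 6 h ratios of Mmp9, Mmp14, Mmp8 and Mmp12 shrink with the correction, from 0.49, 0.67, 0.67 and 0.42 to -0.03, 0.21, 0.25 and 0.07, while those of Timp3 are -0.71 or lower at 0, 6 and 24 h in both forms.

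Counted over the 9 genes that passed the filter, few differed between the genotypes. At 0 h, 1 was called (Timp3 lower), where 3.94% of all 9909 genes were called in either direction. At 6 h, 3 were called (Mmp8 and Mmp14 higher, Timp3 lower), where 3.69% of all genes were, and only Timp3 after correction or with the values as deposited. At 24 h, 2 were called (Mmp2 higher, Timp3 lower), where 4.99% were. At 48 h, none was called, where 9.53% were, and in the full 10 the unfiltered Timp1 was lower. Timp2 and Timp3 were lower in Arntl-/- macrophages at all 4 times, 2 of 9, where 7.37% of all genes were. No gene was higher at all 4 times, where 8.01% of all genes were, and none had 4 Arntl-/- values wholly above or wholly below the 4 WT values, where 0.706% and 0.555% of all genes had.

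At 24 and 48 h more of these genes were called against 0 h than between the genotypes, and at 6 h fewer were. Changes within a genotype share its 0 h library. In WT, 1 of 9 genes was called at 6 h (Mmp8 lower, 7.48% of all genes), 3 at 24 h (Mmp2, Mmp14 and Mmp19 higher, 15.6%) and 4 at 48 h (Mmp2, Mmp8, Mmp12 and Mmp19 higher, 26.6%). In Arntl-/- macrophages, 1 was called at 6 h (Mmp14 higher, 5.39%), 3 at 24 h (Mmp2, Mmp14 and Mmp19 higher, 15.9%) and 7 at 48 h (Mmp2, Mmp8, Mmp12, Mmp14, Mmp19, Timp2 and Timp3 higher, 31.2%). At 48 h the median log2 change of the 9 genes was 0.43 in WT and 0.92 in Arntl-/- macrophages, against 0.00 and -0.01 for all genes. After correction these medians were 0.27 and 0.38. The 9 macrophage markers had medians of 0.66 and 0.84 at 48 h, with 6 called higher and 1 (Mrc1) called lower in each genotype, and medians of 0.17 and 0.21 after correction. Their part in the MMP values was not tested. After correction 2 genes were called in WT at 48 h (Mmp2 and Mmp19) and 4 in Arntl-/- macrophages (Mmp2, Mmp19 and Timp3 higher, Mmp13 lower). Of the 10 genes, 8 were highest at 48 h in WT and 8 in Arntl-/- macrophages, where 33.6% and 32.9% of all genes past the filter were. The 8 in WT include Timp1, which did not pass it. After correction Mmp9 was highest at 6 h in both genotypes, and Mmp14 at 24 h in Arntl-/- macrophages, so fewer were highest at 48 h.

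The balance of proteases to inhibitors was also computed, after the values were seen. Summed over the 7 MMPs and divided by the sum of the 3 TIMPs, it was 10.1, 9.94, 11.4 and 9.77 in WT and 12.8, 14.7, 12.7 and 13.7 in Arntl-/- macrophages at 0, 6, 24 and 48 h. All 4 Arntl-/- values were above all 4 WT values, by 1.27-fold, 1.48-fold, 1.11-fold and 1.40-fold at matched times. After correction for expression level the WT values were 8.30 to 12.1 and the Arntl-/- values 11.9 to 15.1, so that the ranges met, with the Arntl-/- value still the higher at each time. Size factors do not enter such a ratio within a library. The sum of the MMPs was 4628 to 8157 in WT and 5271 to 8565 in Arntl-/- macrophages, and that of the TIMPs 465 to 835 and 411 to 627. The level of Mmp14 over that of Timp2, the pair that acts on proMMP-2, was 2.42, 2.47, 3.79 and 2.26 in WT and 2.51, 3.99, 3.83 and 3.32 in Arntl-/- macrophages.

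**Figure D3:**
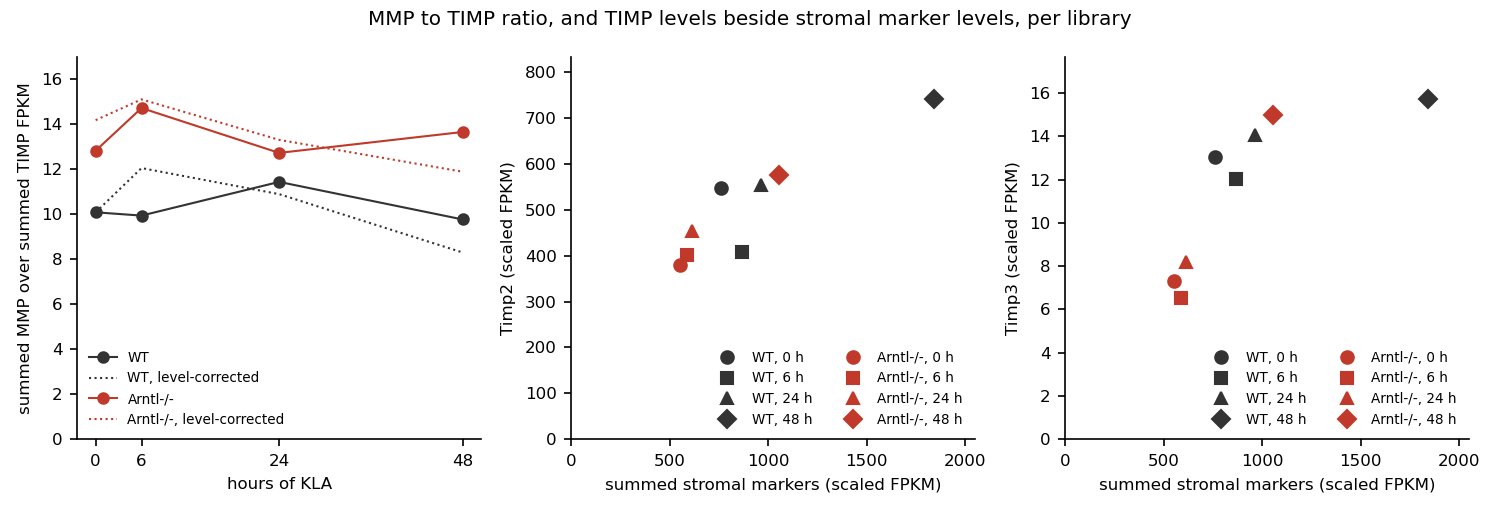
Left, summed MMP over summed TIMP FPKM (y axis from 0) against hours of KLA, with dotted lines after correction for expression level; middle and right, scaled FPKM of Timp2 and Timp3 against the summed stromal markers, 1 point per library. The Arntl-/- ratio is 12.7 to 14.7 and the WT ratio 9.77 to 11.4, and Timp2 and Timp3 have a Pearson's r of 0.888 and 0.852 with the stromal sum over the 8 libraries.

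Along the chromosome 9 cluster, neighbouring genes differed widely in level. In map order, the mean level was 393 for Mmp13, 912 for Mmp12, 0.176 for Mmp1b, 21.6 for Mmp3, 0 for Mmp1a, 20.1 for Mmp10, 1253 for Mmp8, 338 for Mmp27, 0.0603 for Mmp20 and 0 for Mmp7. Mmp27, an MMP that was not among the 10 genes described, begins 2971 bases after the end of Mmp8 and was at 258 to 435. Mmp3 and Mmp10, which encode stromelysins, were low, and at 6, 24 and 48 h Mmp3 was above and Mmp10 below its 0 h value in both genotypes. Mmp3 was at 5.33, 20.2, 25.6 and 47.0 in WT and 9.23, 12.0, 18.3 and 34.7 in Arntl-/- macrophages, and Mmp10 at 36.5, 23.4, 4.20 and 12.8 and at 51.1, 18.5, 5.62 and 9.13. Both missed the filter. The 4 clustered genes that were abundant did not share one time course. Mmp13 was highest at 6 h and Mmp12 and Mmp8 at 48 h in both genotypes, while Mmp27 was highest at 48 h in WT (393) and at 0 h in Arntl-/- macrophages (435). The 48 h value of Mmp13 in WT lay close to its 6 h value.

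**Figure D4:**
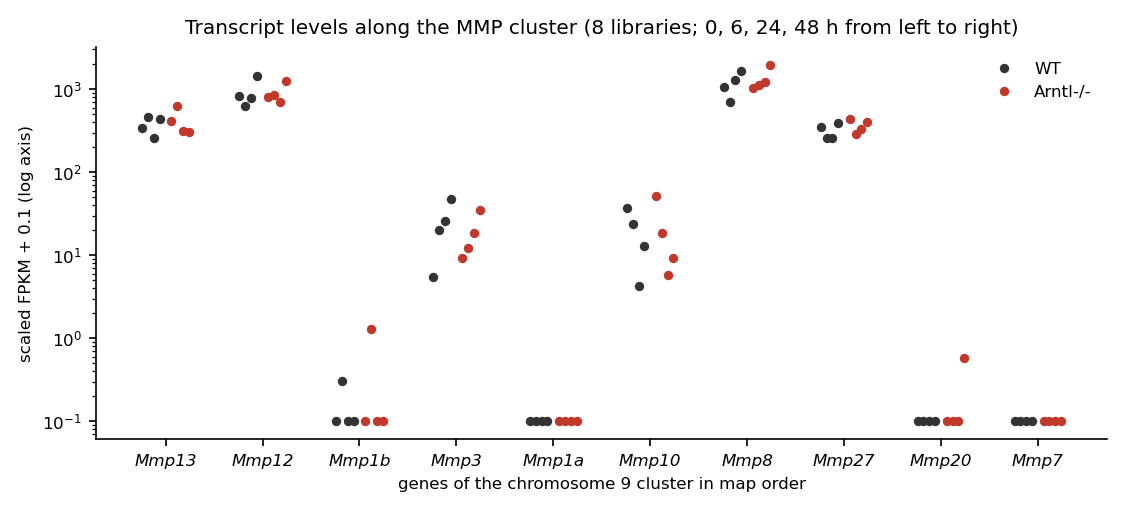
Scaled FPKM + 0.1 on a log axis for the 10 MMP genes of the chromosome 9 cluster in map order, 8 libraries each, with 0, 6, 24 and 48 h from left to right within a genotype. Mmp13, Mmp12, Mmp8 and Mmp27 lie between 258 and 1961 and the genes between them at 51.1 or less, with Mmp1a and Mmp7 at 0 in every library.

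The other genes of these pathways were taken from lists. Of the 16 other MMP genes, 2 passed the filter, Mmp27 and Mmp24, and neither was called between the genotypes at any time. Timp4 was at 0 in all 8 libraries. Of 8 genes of the plasminogen system, which also activates MMPs, 5 passed. Serpinb2, an inhibitor of the plasminogen activators, was higher in Arntl-/- macrophages at all 4 times (448, 656, 889 and 744 against 324, 446, 624 and 449 in WT), called at 48 h. Plau, the urokinase activator, was called lower at 24 and 48 h than at 0 h in both genotypes (766 to 262 and 263 in WT, 844 to 249 and 260 in Arntl-/-), the opposite direction to Mmp2.

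Of 16 other proteases and proprotein convertases, 11 passed the filter. Adamts1, a secreted metalloproteinase with thrombospondin domains, was called higher in Arntl-/- macrophages at 6 and 24 h (19.5 against 12.6 and 40.8 against 25.5), and no other of the 11 was called between the genotypes. At 48 h against 0 h, 5 were called higher in WT and 6 in Arntl-/- macrophages, among them the lysosomal cathepsin genes Ctsb, Ctsk, Ctsl and Ctss in both. Of these 4, Ctsk alone passed 1.5-fold after correction, and Ctsb and Ctsl were then at 1.02-fold in WT and at 0.889-fold and 0.844-fold in Arntl-/- macrophages. Of 9 genes for MMP partners and regulators, 5 passed. Thbs1, which encodes thrombospondin-1, was at 256, 281, 1328 and 644 in WT and at 426, 483, 1382 and 1326 in Arntl-/- macrophages, called higher at 0, 6 and 48 h. At 6 h its ratio was 1.72 and fell short of 1.5-fold after correction, at 1.43. Thbs2 was called lower at 6 and 48 h from 16.8 scaled FPKM or less. Lcn2, whose protein binds Mmp9, and Bsg, an inducer of MMPs, were called higher at 48 h than at 0 h in both genotypes and were not called between them.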

How the data were processed

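The FPKM values were used as the authors deposited them. They aligned paired-end reads to mm9 with STAR and used HOMER to count tags of either strand over RefSeq exons, with at most 3 tags per position (tool versions are not given in the sources used here), kept 1 transcript per gene and scaled to 10000000 reads. Of 12 value columns, 4 matched no sample here and were not used, 1 fragment of a line was left out, and the 29 ChIP-seq and input samples were not analysed here.

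Reads behind each value were recovered from FPKM and length (100% whole within 0.1) and served for the filter and intervals only. Libraries were scaled by median-of-ratios size factors. The level correction subtracted each library's lowess curve (fraction 0.3) against the 8-library mean. Steps were tested on simulated data (scipy 1.17.1, statsmodels 0.14.6, pandas 2.3.3, numpy 2.4.6, matplotlib 3.10.9, Python 3.11.15).

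The 10 genes and all lists (other family members, plasminogen system, proteases, regulators, clock targets, KLA-induced, macrophage, stromal, neutrophil, osteoclast, lymphoid and dendritic markers, host genes) were chosen with earlier results of these data known. All 10 genes are named, and in each list those called or, by size of mean log2 ratio or change, at most 4. Close genes are the 3 with the highest r for the 3 genes of widest range among those past the filter. Alternatives were upper-quartile scaling, no size factors, the level correction, pseudocounts of 1 and 0.01, filters of 10 reads, none, or 100 reads in a WT library, and 2-fold. The alternatives for the MMP to TIMP ratio were chosen after seeing the data. Promoter letters were read from the mm9 genome upstream of the RefSeq starts. A listed gene of the plasminogen system is not reported here.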

Additional observations from a re-analysis of the deposited data

How the results depend on the processing

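Counts of called genes out of 9 depended on the setting. The mean log2 ratio of every gene over the 4 times stayed within the spread between times under all 9 alternatives run on it. The alternatives that left a time out could not take the mean beyond that spread, so they are no check of it. The sign of the mean turned under some of the 9 for Mmp9, Mmp12, Mmp14 and Mmp19. With the values as deposited, 1 gene was called between genotypes at 6 h in place of 3, 3 in WT at 48 h (without Mmp8) and 6 in Arntl-/- macrophages at 48 h (without Mmp12 and Timp2, and with Mmp13 lower), and in WT at 6 h the 1 gene was Mmp13, higher, in place of Mmp8, lower. With upper-quartile scaling, 1 was called at 24 h, and 2 in Arntl-/- macrophages at 6 h and 8 at 48 h (with Mmp9) against 0 h. With the correction for expression level, 1 was called between genotypes at 6 h and 1 at 24 h, 0 in WT at 6 h against 0 h, 2 in WT at 24 h (without Mmp14), 2 in WT at 48 h, 0 in Arntl-/- macrophages at 6 h and 4 at 48 h. With a filter of 10 reads, no filter, or 100 reads in a WT library, Timp1 entered, and 1 was called between genotypes at 48 h, 2 in WT at 6 h and 5 at 48 h, and 2 in Arntl-/- macrophages at 6 h and 8 at 48 h. At 2-fold in place of 1.5-fold, 0 were called between genotypes at 0, 6 and 24 h, 0, 0 and 1 in WT at 6, 24 and 48 h, and 0, 1 and 3 in Arntl-/- macrophages. The cause was not tested, except that a wider filter admits Timp1 by construction. The log2 ratio of Arntl-/- to WT of summed MMP over summed TIMP, averaged over the times, was 0.39, and 0.33 to 0.47 with a time left out, 0.41 after correction, 0.40 without Mmp9 and 0.37 without Mmp8 and Mmp14. The labels number no replicates, and no model with time as a block was fitted. The times are different conditions, so ratios at matched times were averaged only as a description. With 1 library per condition, culture, mouse and genotype cannot be told apart, and depth limits Timp1 and Timp3.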

Other observations

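Most of the KLA-induced genes that were listed to check the treatment rose in both genotypes. Of 10 genes listed, 9 passed the filter, and 7 were called higher at 24 h than at 0 h in WT and 7 in Arntl-/- macrophages, none lower, where 15.6% and 15.9% of all genes were called in either direction. Tnf was not called in either genotype then, at 513, 638, 473 and 496 in WT and at 611, 793, 527 and 429 in Arntl-/- macrophages at 0, 6, 24 and 48 h. Nos2, the inducible nitric oxide synthase, was at 12.0, 106, 117 and 276 in WT and at 31.8, 137, 277 and 529 in Arntl-/- macrophages, and Il1b, which encodes interleukin-1β, was at 46.6, 164, 600 and 433 and at 93.0, 201, 714 and 706. Of 3 osteoclast markers past the filter, Atp6v0d2 was called lower in Arntl-/- macrophages at 6, 24 and 48 h (at 6 h not after correction for expression level, at a ratio of 0.716), and the summed level of the list was 365 to 620 in WT and 313 to 521 in Arntl-/- macrophages. The list's r over the 8 libraries was 0.928 with Timp2 and 0.816 with Mmp19. None of 8 lymphoid and dendritic markers passed the filter, and their sum was 21.4 to 38.5 in WT and 29.8 to 61.2 in Arntl-/- macrophages. The host gene Syn1, within which Timp1 lies, was at 49.1 to 82.9 and was called in no comparison. Neutrophil markers other than S100a8, S100a9 and Csf3r did not pass the filter, and their list's summed level was 750, 842, 1048 and 1264 in WT and 1223, 1307, 1312 and 1321 in Arntl-/- macrophages, higher in the Arntl-/- library at each time. Its r was -0.332 (Timp3) to 0.604 (Mmp8 and Mmp2) with the 10 genes, and 0.412 with Mmp9.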
